A study of Drosophila melanogaster with 8 samples.

Results

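The Hippo and Fat pathway genes are 10 listed growth-control genes, ft, ds, fj, ex, Mer, kibra, hpo, sav, wts and yki, chosen as the probe sets whose single platform symbol is one of these names. The rule found 10 probe sets for 9 of the 10 genes, out of 13647 single-symbol probe sets for 11982 genes on the array. The gene ft matched none and was not analysed here, kibra had 2, and every other member had 1. The signals came from eye-antennal imaginal discs, the paired sacs of epithelium that later build the eyes, antennae and much of the head, of wandering third-instar Drosophila melanogaster larvae.

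In all 4 genotypes ey-GAL4, which places the yeast activator GAL4 under eyeless control and so acts mainly in the eye part of the disc, drove UAS transgenes. The lacZ group carried ey-GAL4 with 2 copies of UAS-lacZ, a bacterial reporter gene used as a control. The vg group carried UAS-vg and 1 UAS-lacZ, with vg encoding the wing-selecting cofactor Vestigial. The simj group carried UAS-simj and 1 UAS-lacZ, with simj encoding the p66 subunit of the NuRD chromatin complex. The vg_simj group carried UAS-vg and UAS-simj and no UAS-lacZ, so the number of lacZ copies cannot be told apart from genotype. Each group had 2 arrays, labelled biological replicates, and each array pooled 100 pairs of discs, so cells outside the driver's domain, antennal cells included, are in every value.

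Fat and Dachsous are giant cadherins that bind each other on neighbouring cells, and Four-jointed is a Golgi kinase that tunes this binding. Expanded, Merlin and Kibra act at the apical cell cortex. They promote a kinase cascade in which Hippo, with its scaffold Salvador, activates Warts, and Warts phosphorylates the coactivator Yorkie and keeps it out of the nucleus. Nuclear Yorkie binds DNA through Scalloped, the same partner that Vestigial uses in the wing, and drives growth and survival genes, among them ex, Mer, kibra and fj themselves. Much of this pathway is controlled by phosphorylation and protein location, which transcript levels do not measure.

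None of the 9 measured members passed the test in any genotype comparison. The test was limma's moderated test on log2 signals over 10205 probe sets, with Benjamini-Hochberg adjustment and a threshold of 0.05. Across the 6 pairwise comparisons the 54 log2 changes ran from -0.47 to 0.50, and the smallest adjusted p was 0.163. The 95% interval of each change lay inside a 2-fold change in either direction for all 54, with the farthest bounds at -0.96 and 0.95. These intervals are for single values and are not adjusted for their number, and with 2 arrays per group their width draws on a variance moderated over all probe sets tested. An exact permutation test of 2 arrays against 2 cannot give a two-sided p below 0.333. The vg transcript, by contrast, rose from 28.7 ± 0.990 (SD, n = 2) in lacZ to 246 ± 17.6 in vg and 417 ± 21.9 in vg_simj. Its log2 changes were 2.98 ± 0.27 (SE; limma, adjusted p = 0.00419) and 3.73 ± 0.27 (limma, adjusted p = 0.000443). The lacZ mean was below both lacZ array medians, 42.35 and 43.4, so the size depends on the pseudocount, from 2.69 to 3.09 in vg and from 3.42 to 3.85 in vg_simj over the pseudocounts tried. The simj signal was 1162 ± 140 (SD, n = 2) in simj and 994 ± 117 in vg_simj, beside 603 ± 176 in lacZ and 637 ± 59.4 in vg. Its difference of 0.97 ± 0.22 between simj and lacZ missed the threshold (limma, adjusted p = 0.180), and the simj effect averaged over both backgrounds, a comparison added after the values were seen, passed at 0.80 ± 0.15 (limma, adjusted p = 0.0401).

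**Figure D1:**
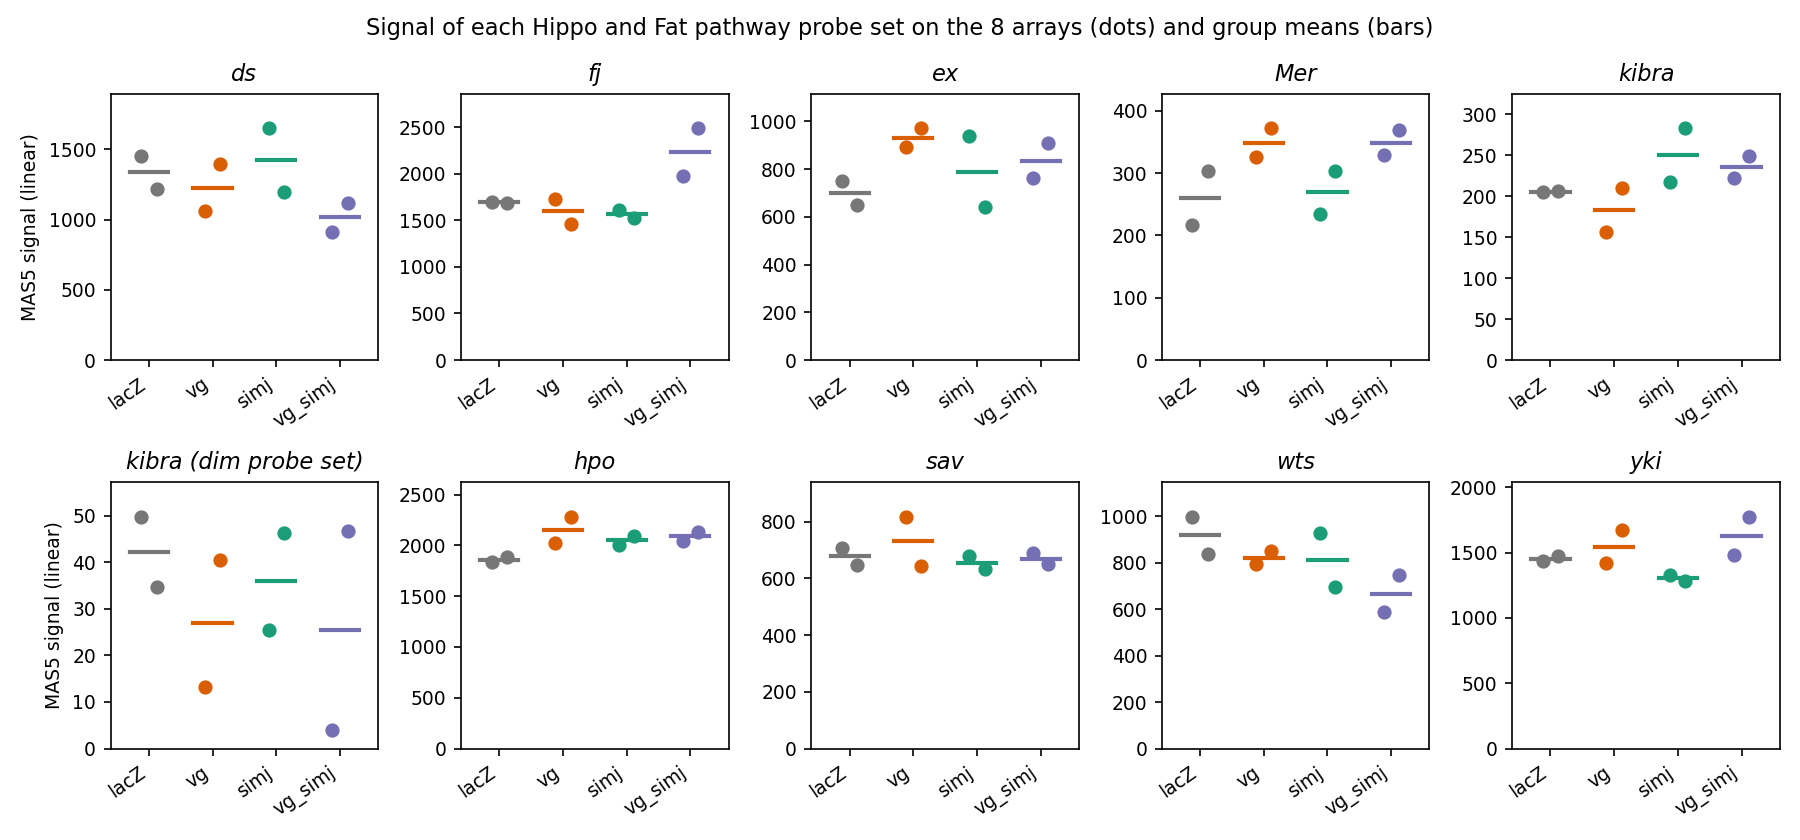
MAS5 signal (vertical axes, linear, starting at 0) of the 10 member probe sets in the 4 genotypes, with 1 dot per array and a bar at the mean of 2 arrays. The fj dots of vg_simj, at 1980.1 and 2489, lie above the other 6, and the Mer dots of vg and vg_simj lie above those of lacZ and simj.

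Counts of calls across the whole array give the scale for these values. All probe sets tested were called at 0.774% in vg against lacZ, 0.412% in simj against lacZ and 3.33% in vg_simj against lacZ. The share was 0.921% in vg_simj against vg, 1.3% in vg_simj against simj and 2.09% in vg against simj. With so few calls in general, 0 of 9 members called is close to what the whole array showed. At an unadjusted p under 0.05, vg_simj against lacZ held 2 of 9 members, fj and wts, against 15.4% of all probe sets. The comparisons of vg_simj with vg and with simj each held 1 member, fj, against 9.58% and 17.1%. None of the 9 reached an unadjusted p under 0.05 in vg against lacZ, simj against lacZ or vg against simj, where 10.1%, 8.17% and 20.5% of all probe sets did.

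The planar signal genes ds and fj were measured at high signals on every array. For ds, the cadherin that acts as Fat's ligand, the signals were 1454 and 1218 in lacZ, 1058 and 1394 in vg, 1651 and 1194 in simj, and 914 and 1118 in vg_simj. Both vg_simj arrays were lower than both lacZ and both simj arrays, but 1 vg array lay between them, and replicates of simj differed by more than the lacZ and vg_simj means did. The order of the means, simj, lacZ, vg and vg_simj, had no neighbours whose arrays were apart. The log2 change was -0.40 ± 0.21 (SE) in vg_simj against lacZ (limma, adjusted p = 0.457; 95% interval -0.89 to 0.10) and -0.47 ± 0.21 in vg_simj against simj (limma, adjusted p = 0.306).

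For fj, whose kinase product modifies Fat and Dachsous, the signals were 1698 and 1689 in lacZ, 1731 and 1466 in vg, 1613 and 1524 in simj, and 1980.1 and 2489 in vg_simj. Both arrays with the 2 transgenes together were higher than all 6 others, while the groups with 1 transgene lay at or a little under the control. The mean was 2235 ± 360.1 (SD, n = 2) in vg_simj against 1694 ± 6.36 in lacZ, 1599 ± 187 in vg and 1569 ± 62.8 in simj. Against vg_simj the neighbour in this order, lacZ, did not overlap with it, and the lower neighbours, lacZ with vg and vg with simj, overlapped.

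The log2 change of fj was 0.39 ± 0.15 (SE) in vg_simj against lacZ (unadjusted p = 0.0302, limma adjusted p = 0.254; 95% interval 0.05 to 0.73). It was 0.48 ± 0.15 against vg (limma, adjusted p = 0.280; interval 0.14 to 0.82) and 0.50 ± 0.15 against simj (limma, adjusted p = 0.163; interval 0.16 to 0.84). These 3 comparisons share the vg_simj arrays. Each transgene alone gave values near 0, with -0.09 ± 0.15 in vg (0.03 after median centring) and -0.11 ± 0.15 in simj against lacZ. The interaction, the vg effect with simj minus that without it, was 0.59 ± 0.21 with a 95% interval of 0.11 to 1.07. Its unadjusted p was 0.0229 and its limma adjusted p was 0.995, in a comparison where 0.049% of all probe sets were called. At an unadjusted p under 0.05 the interaction held 1 of 9 members, fj, against 3.96% of all probe sets. The difference rests on 2 arrays that are themselves apart: the change against lacZ was 0.23 without vg_simj replicate 2 and 0.55 without vg_simj replicate 1.

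Among the cortical regulators, ex and Mer had their higher group means in discs with vg. For ex, which encodes a FERM-domain protein that also binds Yorkie, the signals were 751 and 649.9 in lacZ, 894 and 971 in vg, 937 and 641 in simj, and 762 and 908 in vg_simj. The arrays of vg and of vg_simj were all above those of lacZ, whereas the simj arrays spanned nearly the whole range. Against lacZ, ex differed by 0.41 ± 0.20 (SE, log2) in vg, with a 95% interval of -0.05 to 0.88 (limma, adjusted p = 0.555). With both transgenes it differed by 0.25 ± 0.20 (limma, adjusted p = 0.639). In the order vg, vg_simj, simj and lacZ, each pair of neighbours overlapped.

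Mer encodes Merlin, the fly form of the NF2 tumour suppressor. Its signals were 217 and 304 in lacZ, 325 and 372 in vg, 235 and 304 in simj, and 329 and 369.5 in vg_simj. All 4 arrays with UAS-vg were above all 4 without it, and within each of these sets the groups overlapped. Against lacZ, Mer differed by 0.43 ± 0.22 (SE, log2) in vg (limma, adjusted p = 0.580). With both transgenes it differed by 0.44 ± 0.22 (limma, adjusted p = 0.424). It was 0.38 ± 0.22 in vg_simj against simj (limma, adjusted p = 0.417) and 0.38 ± 0.22 in vg against simj (limma, adjusted p = 0.386). The change in vg ran from 0.19 without lacZ replicate 1 to 0.67 without lacZ replicate 2, and that in vg_simj from 0.20 to 0.67 without the same arrays. The changes against simj ran from 0.19 without simj replicate 1 to 0.56 and 0.57 without simj replicate 2. Averaged over both backgrounds, a comparison of 4 arrays with 4 that was also added afterwards, the vg effect on Mer was 0.41 ± 0.16. Its unadjusted p was 0.0322 and its limma adjusted p was 0.189, with a 95% interval of 0.04 to 0.77, and the value ran from 0.29 to 0.53 as each array was left out. In that comparison 3.66% of all probe sets were called and 0 of 9 members were, and 21.4% and 1 of 9, Mer, had an unadjusted p under 0.05. Of all probe sets 6.05% had, like Mer, every array with vg above every array without it.

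The gene kibra encodes a WW-domain scaffold that joins Expanded and Merlin. Its brighter probe set gave 205.4 and 205.7 in lacZ, 156 and 209.5 in vg, 218 and 283 in simj, and 222 and 249 in vg_simj. The 4 arrays with UAS-simj were above the 4 without it, the nearest being 218 and 209.5, and the simj and vg_simj groups overlapped. The log2 change was 0.27 ± 0.22 (SE) in simj against lacZ (limma, adjusted p = 0.807), 0.19 ± 0.22 in vg_simj against lacZ (limma, adjusted p = 0.766) and -0.45 ± 0.22 in vg against simj (limma, adjusted p = 0.300). The change in simj was 0.08 without simj replicate 2 and 0.455 without simj replicate 1, and that in vg_simj was 0.11 without vg_simj replicate 2. The simj effect averaged over both backgrounds, also added after the values were seen, was 0.32 ± 0.16 (limma, adjusted p = 0.451; 95% interval -0.04 to 0.68). In that comparison 2.18% of all probe sets and 0 of 9 members were called, 12.8% and 0 of 9 had an unadjusted p under 0.05, and 2.25% of all probe sets had every array with simj above every array without it. The other kibra probe set was dim, with signals of 4.0 to 49.8 and only 4 of 8 arrays above their array's median. Its change of -1.27 ± 0.98 in vg_simj against lacZ had the opposite sign to that of the brighter probe set (limma, adjusted p = 0.627), and was 0.16 without vg_simj replicate 1. In the counts the brighter probe set stood for kibra, by the rule that the probe set with the highest mean over all 8 arrays stands for a gene.

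In the core cascade hpo and sav varied less between arrays than wts did. For hpo, the Ste20-like kinase at its head, the signals were 1833 and 1884 in lacZ, 2027 and 2281 in vg, 2002 and 2095 in simj, and 2047 and 2129.5 in vg_simj. All 6 transgene arrays were above both lacZ arrays, and the 3 transgene groups overlapped with their neighbours. The log2 changes against lacZ were 0.21 ± 0.11 (SE) in vg, 0.14 ± 0.11 in simj and 0.17 ± 0.11 in vg_simj, with limma adjusted p = 0.604, adjusted p = 0.805 and adjusted p = 0.576. These 3 changes share the lacZ arrays. This was the member with the narrowest intervals, from -0.05 to 0.47 in vg against lacZ, and its highest array was 1.24 times its lowest.

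The scaffold gene sav had signals of 708 and 648 in lacZ, 817 and 644 in vg, 678 and 632 in simj, and 689 and 649.0 in vg_simj. All groups overlapped with their neighbours, and the array at 817 alone lay clearly above the rest. The largest of its changes was 0.15 ± 0.15 (SE) in vg against simj (limma, adjusted p = 0.646; 95% interval -0.21 to 0.50), which was -0.02 without vg replicate 1.

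For wts, the kinase that phosphorylates Yorkie, the signals were 997 and 837 in lacZ, 793 and 850.3 in vg, 927 and 695 in simj, and 586 and 745 in vg_simj. The vg_simj arrays were below both lacZ and both vg arrays but overlapped with simj. The mean was 665 ± 113 (SD, n = 2) in vg_simj against 917 ± 113 in lacZ. The log2 change was -0.47 ± 0.19 (SE) in vg_simj against lacZ (unadjusted p = 0.0420, limma adjusted p = 0.298; 95% interval -0.91 to -0.02). It was -0.31 ± 0.19 in vg_simj against vg (limma, adjusted p = 0.694). As each array was left out, the change against lacZ ran from -0.64 to -0.29.

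For yki, the coactivator on which the cascade acts, the signals were 1435 and 1471 in lacZ, 1419 and 1672 in vg, 1328 and 1286 in simj, and 1483 and 1775 in vg_simj. The simj arrays were the 2 lowest of the 8, and the other 3 groups overlapped with their neighbours. The log2 change was -0.15 ± 0.14 (SE) in simj against lacZ (limma, adjusted p = 0.836), 0.31 ± 0.14 in vg_simj against simj (limma, adjusted p = 0.304; 95% interval -0.01 to 0.63) and 0.24 ± 0.14 in vg against simj (limma, adjusted p = 0.388).

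**Figure D2:**
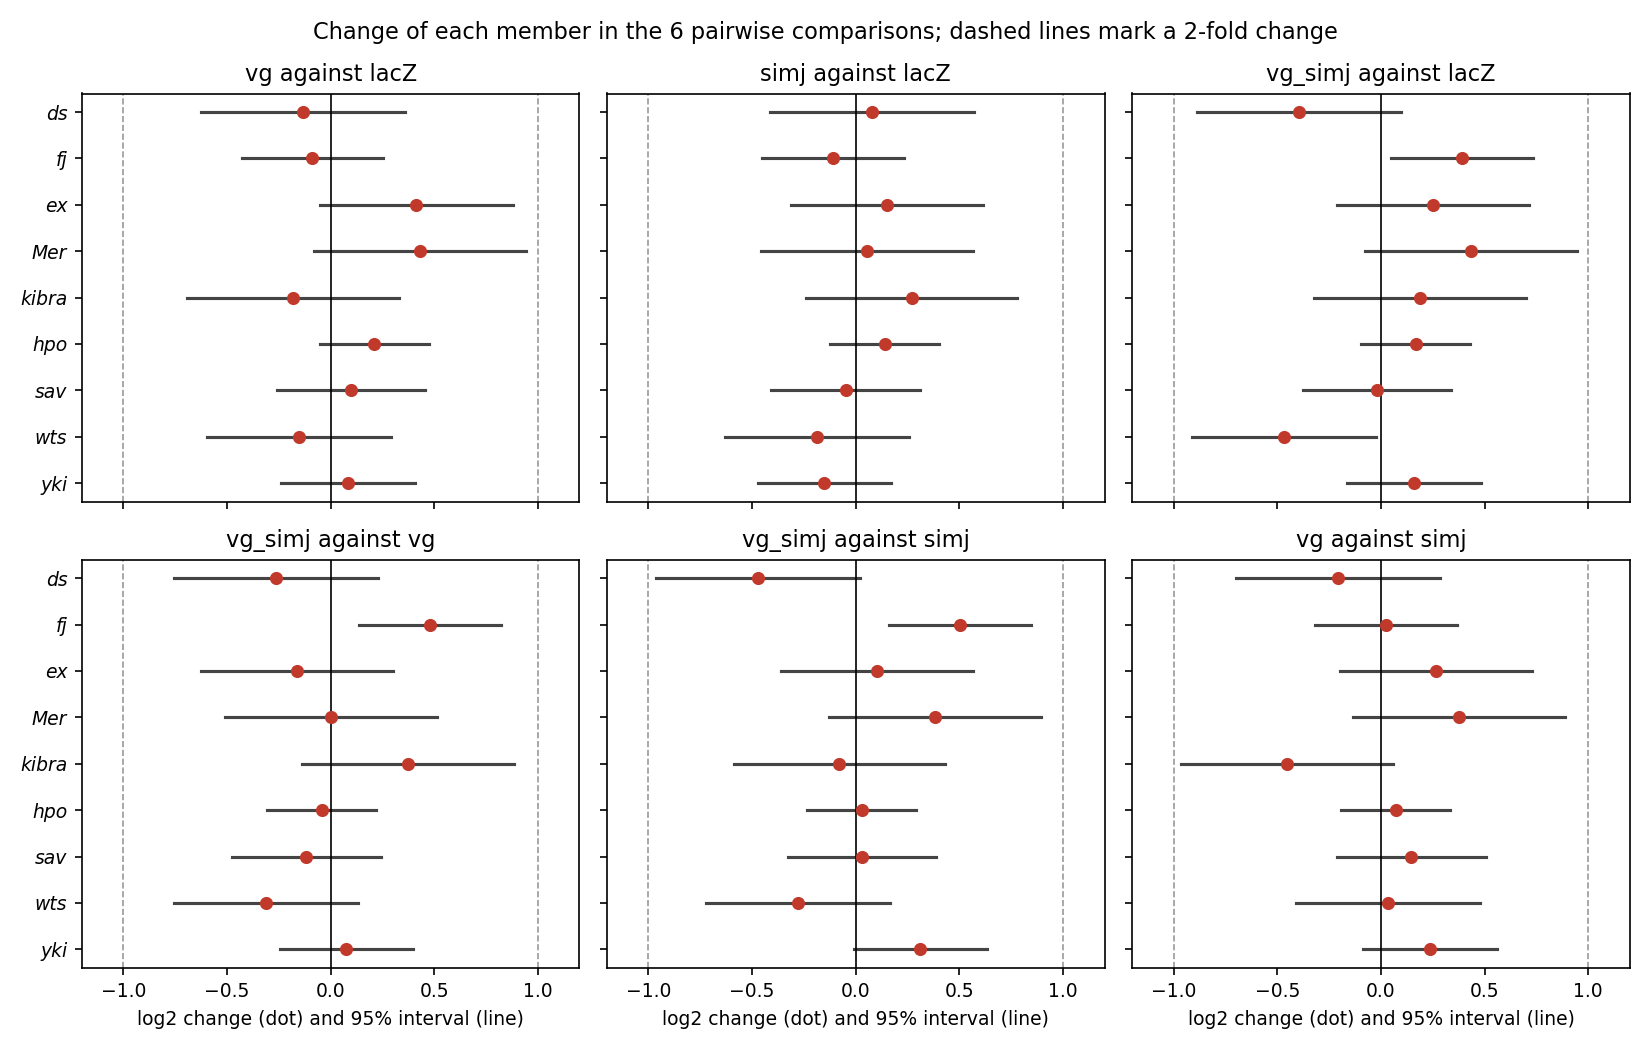
Log2 change (horizontal axes; dot) and 95% interval (line) of the 9 members in the 6 pairwise comparisons, 1 row per gene, with dashed lines at a 2-fold change. No interval reaches a dashed line, and those of fj in the 3 comparisons with vg_simj and of wts in vg_simj against lacZ leave out 0.

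As a set the members had no common direction. In vg against lacZ 5 of 9 changes were positive with a median of 0.08, beside 49.4% positive and a median of -0.0043 over all probe sets tested. In simj against lacZ 5 were positive with a median of 0.06, beside 44.1% and -0.04. In vg_simj against lacZ 6 were positive with a median of 0.17, beside 50.1% and 0.0013. The median size of change, whatever its sign, was 0.15, 0.14 and 0.25 for the members in these 3 comparisons. Over all probe sets tested it was 0.18, 0.18 and 0.21, and over the 5167 probe sets above the 75th percentile on at least 2 arrays it was 0.14, 0.13 and 0.16.

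Groups that do not overlap were frequent on these arrays. The arrays of 3 of 9 members were apart in vg against lacZ (39.4% of all probe sets), of 4 in simj against lacZ (40.1%) and of 8 in vg_simj against lacZ (42.3%). They were apart for 3 of 9 in vg_simj against vg (36.4%), 4 in vg_simj against simj (49.3%) and 3 in vg against simj (54.7%). In vg_simj against lacZ, ex, Mer, fj, kibra, hpo and yki were the 6 with both arrays higher (21.4% of all probe sets), ds and wts were the 2 with both lower (20.9%), and sav overlapped. These directions cut across the roles, with the Yorkie inhibitor genes ex, Mer, kibra and hpo on 1 side and wts on the other. The reported Yorkie targets among the members, ex, Mer, kibra and fj, had changes of 0.25, 0.44, 0.19 and 0.39 in that comparison, none of which passed the test.

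**Figure D3:**
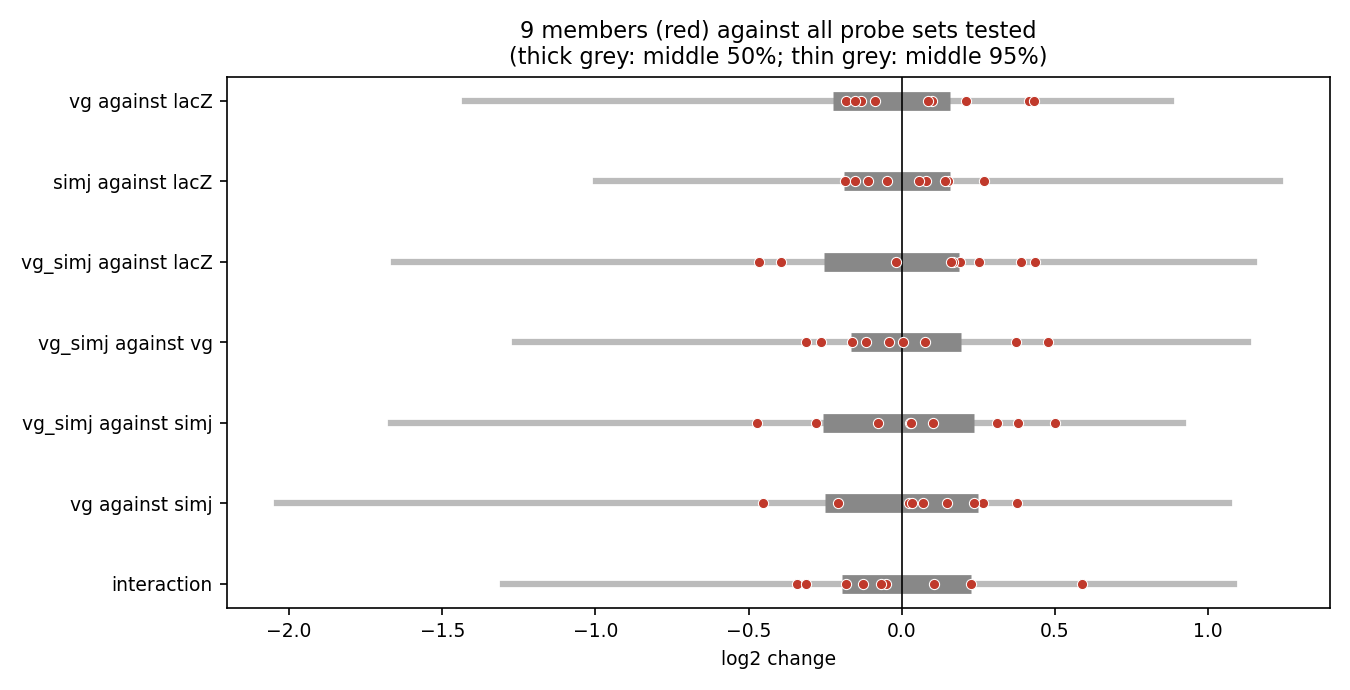
Log2 change (horizontal axis) of the 9 members (red dots) in each comparison, over the middle 50% (thick grey) and middle 95% (thin grey) of the 10205 probe sets tested. Every red dot lies within the middle 95%, and fj is the rightmost in the interaction, at 0.59.

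Other genes of the pathway were also mostly uncalled. The genes named from these lists had the smallest p over the 6 pairwise comparisons and the interaction. The averaged effects gave no call either outside the Yorkie targets, and the smallest adjusted p there was 0.0661 (limma), of 14-3-3zeta in the simj effect, at -0.57 ± 0.12. Of 6 tested genes that carry the Fat signal inward (dco, app, lft, Dlish, Fbxl7 and elgi), 0 passed in any of these comparisons. All 6 had a positive change in vg against simj with a median of 0.35, where 56.9% of all probe sets were positive with a median of 0.06, and 5 of the 6 had an unadjusted p under 0.05, against 20.5% of all probe sets. In the same comparison 7 of 9 members, 10 of 11 further cascade regulators and 10 of 12 reported Yorkie targets were positive. So were 8 of 9 spectrin, capping and junction genes, 7 of 11 apical and basolateral polarity genes and 4 of 7 Yorkie partners. The smallest p among the 6 Fat signal genes over the 7 comparisons was that of lft, whose product Lowfat binds the inner tails of Fat and Dachsous, at 3828 ± 727 (SD, n = 2) in vg and 2579 ± 76.5 in simj. Its log2 change was 0.56 ± 0.16 (SE; limma, adjusted p = 0.117). The next was elgi, which encodes a ubiquitin ligase that acts on Dachs, at 0.35 ± 0.11 in vg_simj against simj (limma, adjusted p = 0.191). The myosin gene d, through which Fat acts on Warts, was not analysed here.

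Of 11 further regulators of the cascade 0 passed. Over the 7 comparisons the smallest p-values were those of Zyx, the zyxin gene that antagonises Warts, with an interaction of 0.64 ± 0.24 (SE; limma, adjusted p = 0.995), and slmb, an F-box gene of protein turnover, at -0.31 ± 0.12 in vg_simj against vg (limma, adjusted p = 0.451). Among 7 tested partners and modifiers of Yorkie 0 passed. In vg_simj against lacZ 6 of the 7 were negative with a median of -0.43, beside a median of 0.0013 over all probe sets. The gene 14-3-3zeta, whose product holds phosphorylated Yorkie in the cytoplasm, stood at 1742 ± 82.9 (SD, n = 2) in lacZ and 1066 ± 73.1 in vg_simj. Its change of -0.71 ± 0.17 did not pass (limma, adjusted p = 0.0794), although it did without simj replicate 1 (adjusted p = 0.0411) or simj replicate 2 (adjusted p = 0.0400). Wbp2, which encodes a Yorkie-binding cofactor, was at -0.68 ± 0.19 in vg_simj against simj (limma, adjusted p = 0.149). The Scalloped gene sd was not analysed here.

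The list of reported Yorkie targets had 12 tested genes of 22 listed, 4 of them the members ex, kibra, Mer and fj. In vg against lacZ 2 rose and 0 fell, and in vg_simj against lacZ 2 rose and 0 fell, in both cases vg and Ilp8. The gene vg is itself the transgene in these discs. Ilp8 encodes a relaxin-family hormone through which abnormally growing discs delay metamorphosis. Its signal rose from 16.9 ± 18.0 (SD, n = 2) in lacZ to 259 ± 58.1 in vg and to 650.1 ± 285 with both transgenes, while simj had 161 ± 5.52. Its log2 change was 4.10 ± 0.65 (SE) in vg (limma, adjusted p = 0.0359) and 5.37 ± 0.65 in vg_simj (limma, adjusted p = 0.00456). The lacZ mean lies below the lacZ array medians, so these sizes too depend on the pseudocount, from 3.42 to 4.47 in vg and from 4.65 to 5.74 in vg_simj. The value of 3.44 ± 0.65 in simj missed the threshold (limma, adjusted p = 0.0973), and the averaged simj effect passed at 2.35 ± 0.46 (limma, adjusted p = 0.0445). The call in vg was lost without either array of vg, simj or vg_simj, with adjusted p-values of 0.0698 to 0.142, and without the intensity trend (adjusted p = 0.115), with the smaller pseudocount (adjusted p = 0.0558) or with only these groups in the fit (adjusted p = 0.207). The call in vg_simj was lost without vg_simj replicate 1 (adjusted p = 0.0503). Growth targets other than these did not pass. CycE, the cyclin gene of S-phase entry, was at -0.02 ± 0.18 in vg_simj against lacZ (limma, adjusted p = 0.980), upd1, a JAK/STAT ligand gene, at 0.75 ± 0.31 (limma, adjusted p = 0.297), and InR, the insulin receptor gene, at -0.76 ± 0.29 (limma, adjusted p = 0.264). All 3 are outside the naming rule and were chosen after their values were seen.

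Neighbouring systems that share proteins with the pathway showed 0 calls too. Of 5 tested Frizzled planar polarity genes 0 passed, and all 5 had a positive change in vg against simj with a median of 0.39. Over all probe sets 56.9% were positive in that comparison, with a median of 0.06. The core gene Vang was at 0.39 ± 0.12 (SE; limma, adjusted p = 0.132) and the effector gene fy at 0.39 ± 0.14 (limma, adjusted p = 0.172). Of 11 apical and basolateral polarity genes 0 passed. In vg_simj against lacZ, par-6 stood at 0.51 ± 0.13 (limma, adjusted p = 0.0844) and baz, the Par-3 gene, at -0.82 ± 0.23 (limma, adjusted p = 0.128). Of 9 spectrin, capping and junction genes 0 passed. Over the 7 comparisons the smallest p-values were those of kst, the heavy beta-spectrin gene, at -0.37 ± 0.17 in vg_simj against lacZ (limma, adjusted p = 0.346) and of alpha-Cat at 0.23 ± 0.12 in vg_simj against simj (limma, adjusted p = 0.378).

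**Figure D4:**
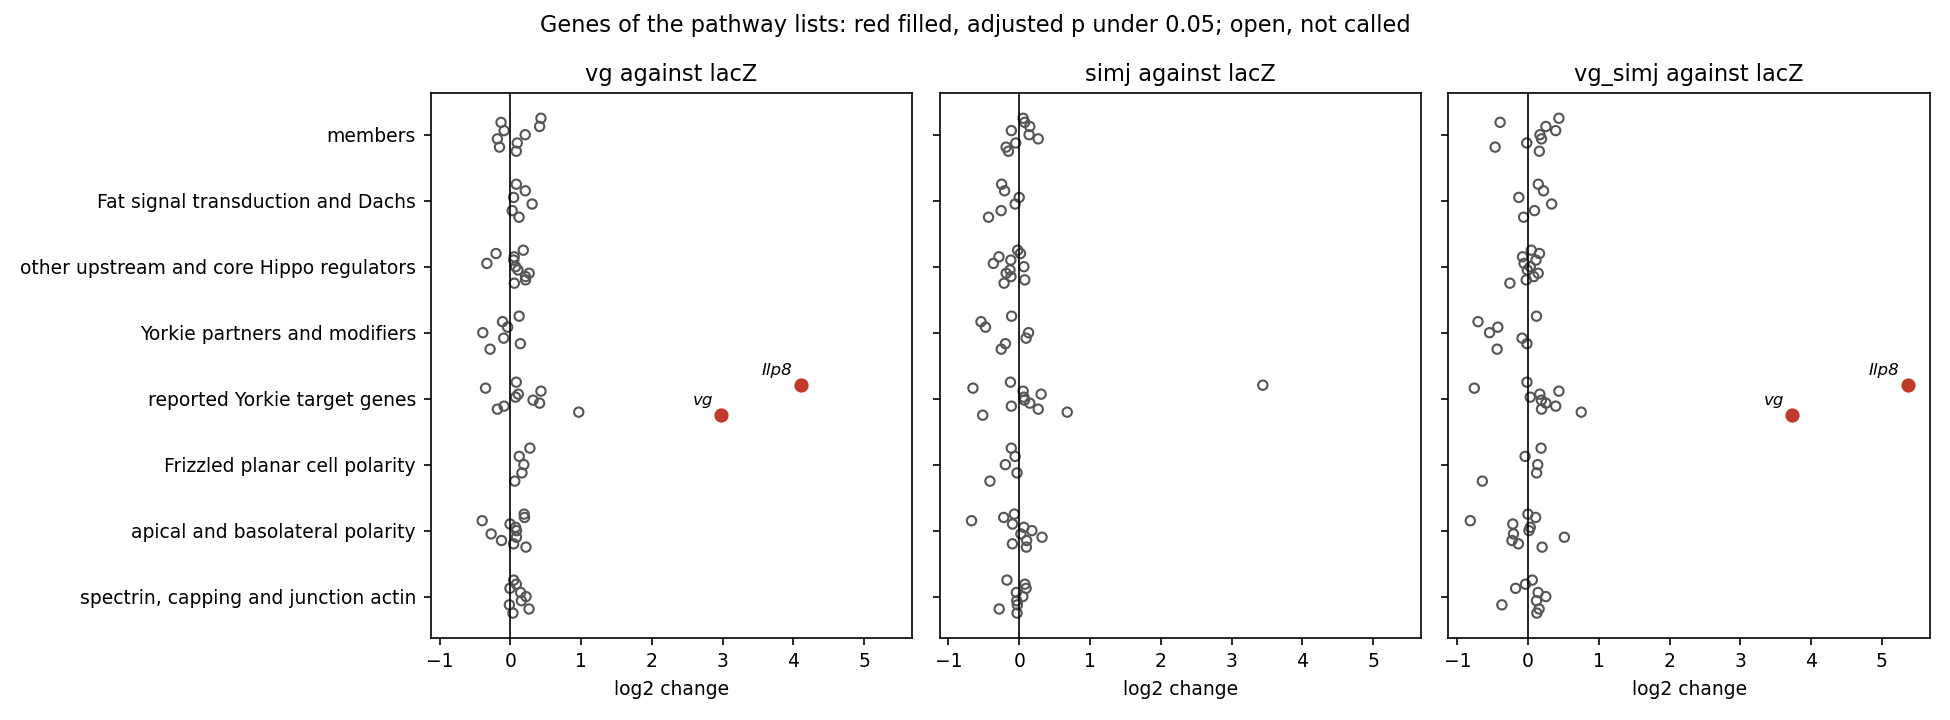
Log2 change (horizontal axes) of the members and of the other pathway genes, 1 row per list and 1 dot per gene, in each transgene group against lacZ. Filled red dots passed the test and open dots did not, and the red dots are vg and Ilp8 alone, at 2.98 and 4.10 in vg and 3.73 and 5.37 in vg_simj.

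Markers of several cell types moved more than the members did. Fewer cells of a type in a pool cannot be told apart from less RNA per cell. This holds for cells of the discs and for any cells collected with them. Of 5 photoreceptor and neuron markers 4 fell in vg_simj and 1 fell in simj against lacZ, with summed signals of 5437 to 5659 in lacZ, 4972 to 5367 in vg, 2446 to 3031 in simj and 1908 to 2429 in vg_simj. Of 5 measured ring gland markers 4 fell in vg and 4 in vg_simj, and their sum was 15899 to 21055 in lacZ, 4802 to 5126 in vg, 21298 to 27677 in simj and 1942.5 to 2799 in vg_simj. Of 5 haemocyte markers 2 fell in vg and 1 in vg_simj, with sums of 3540.1 to 4180.2 in lacZ, 519 to 906 in vg, 4348 to 5764 in simj and 1339.8 to 1913 in vg_simj. Of 3 wing pouch markers 1 rose in vg and 2 in vg_simj, vg itself included, and the sum was 222 to 314 in lacZ, 567.5 to 761 in vg, 286 to 349.6 in simj and 1299 to 1535 in vg_simj. The higher fj and lower wts signals of vg_simj therefore stand in the discs with the lowest photoreceptor and highest wing pouch sums. The simj discs had photoreceptor sums of 2446 to 3031, under those of lacZ too. There fj was at 1613 and 1524, beside 1698 and 1689 in lacZ, and wts at 927 and 695, beside 997 and 837. The higher Mer signals of both vg groups stand in the discs with the lowest ring gland and haemocyte sums. The 9 measured eye-antennal disc markers summed to 14975 to 14991 in lacZ, 14066 to 15218 in vg, 9982 to 10437 in simj and 13103 to 16245 in vg_simj. None of the 9 passed in simj against lacZ, 5 had an unadjusted p under 0.05 there, and 3 fell in the averaged simj effect. In vg_simj against lacZ 1 of the 9 rose, 5 had an unadjusted p under 0.05 and 4 changes were positive, so that sum joins rises and falls. There Dll was at 1579 and 1909, beside 1141.5 and 928 in lacZ, and eya at 2339 and 2499, beside 2879 and 3854. The low yki signals of simj stand in the discs with the lowest eye-antennal disc marker sums. The high kibra signals of simj stand there too, and those of vg_simj overlapped with them at sums of 13103 to 16245. The photoreceptor sums were lower on every array with UAS-simj, 1908 to 3031, than on every array without it, 4972 to 5659. The kibra signals were higher on every array with UAS-simj than on every array without it. The 5 salivary gland markers summed to 232.5 to 298 in lacZ, 647 to 3568 in vg, 1625 to 2261 in simj and 787 to 5095 in vg_simj, and 0 of 5 passed. As with hpo, these sums were higher on all 6 transgene arrays than on both lacZ arrays, but not every marker followed. In vg replicate 2 ng3 was at 15.9, under its 17.9 and 32.9 in lacZ. Sgs3 was at 4.4 in simj replicate 2 and 3.4 in vg_simj replicate 2, under its 6.5 and 7.7 in lacZ. The 3 fat body markers summed to 251.0 to 312.1 in lacZ and 328.5 to 795.0 in the transgene groups, and 0 of 3 passed. The 3 glia markers summed to 863 to 949 in vg_simj and 1178 to 1465 elsewhere, and 0 of 3 passed. The part of these cell types in the members' values was not tested. No measured marker of the lists was at or below the array median on all 8 arrays.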

How the data were processed

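Total RNA from 8 pools of eye-antennal discs (100 pairs each) was labelled from 100 ng by in vitro transcription, per the labels' protocols. Each deposited number is the intensity of a probe set on a linear scale, summarised by the authors with MAS5 per the submitters' processing notes (version not given in the sources used here). Arrays had been scaled to a mean of 500.0 after trimming 2% at either end, as their values show. Array medians ran from 36.55 to 46.3. No detection calls were used, and the number of arrays limits the precision.

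Of 18952 probe sets, 183 were controls and left out, 13647 had 1 symbol, 402 several and 4903 none. Older symbols were brought to current ones with a RefSeq gene table, in which 103 of the single-symbol probe sets found no entry. Probe sets brighter than the array median on at least 2 arrays entered the tests; 10205 did, all 10 member probe sets included. Deposited signals were taken as log2(signal + 2.8), where 2.8 is the 10th percentile over the 8 arrays.

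The tests came from limma 3.58.1 (R 4.3.3), with a mean for each genotype, all 8 arrays in a single fit and an intensity trend in eBayes. Residual degrees of freedom were 4 and prior ones 3.84. There were 7 contrasts, the 6 pairwise ones and the interaction; 2 effects averaged over backgrounds were added after the values were seen. Tests were two-sided and adjusted within a contrast. The code was tested on simulated data. The highest-mean probe set stood for a gene. Replicates correlated at 0.955 to 0.971 across probe sets, and arrays of different groups at 0.912 to 0.963.

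All members were named, as were called genes of the other lists, or the 2 with the smallest p where none was called, and vg, simj, ey and sd where measured. No member was called, so no genes were sought by likeness of pattern. The ey signal was 344 ± 14.1 (SD, n = 2) in simj, beside 548 ± 115 in lacZ, 559.95 ± 26.8 in vg and 616 ± 92.6 in vg_simj. Its log2 change of -0.65 ± 0.19 (SE) in simj against lacZ did not pass (limma, adjusted p = 0.338). The members and lists were chosen with earlier results of these data known. Of the marker lists, 0 genes passed against lacZ for glia (3 tested), salivary gland (5), fat body (3), muscle (1) and trachea (1), and 1 of 9 eye-antennal disc markers rose in vg_simj. No sequences or coordinates are shown.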

Additional observations from a re-analysis of the deposited data

How the results depend on the processing

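No member was called under any of the 10 alternatives or with any of the 8 arrays left out, over 1554 values, and the smallest adjusted p was 0.0890; 8 of these values under the alternatives and 70 with an array left out had the opposite sign to the reported fit. The fj change in vg against lacZ turned to 0.0287 after median centring and ran from -0.207 to 0.0311 with single arrays left out. The sav change in vg against simj then ran from -0.0238 to 0.318, and that of the dim kibra probe set in vg_simj against lacZ from -2.71 to 0.159. After median centring the median change of all probe sets was largest in vg against simj, at 0.19. It was 0.06 there in the reported fit. Same-numbered replicates deviated together at 0.059 to 0.402 between groups, over 0.1 in 4 of 6 pairs of groups, and the labels give no shared batch. With the replicate block 0 members were called, 117 probe sets were called in vg against lacZ (79 without it) and 520 in vg against simj (213 without it), and lft passed in vg against simj (0.56, adjusted p = 0.0452).

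Over the alternatives the probe sets called in all numbered 31 to 117 in vg against lacZ, 5 to 59 in simj against lacZ (42 in the reported fit), 176 to 413 in vg_simj against lacZ (340), 39 to 117 in vg_simj against vg (94), 66 to 353 in vg_simj against simj (133), 98 to 520 in vg against simj and 2 to 5 for the interaction (5). With 1 array left out they numbered 26 to 88, 1 to 34, 156 to 337, 21 to 87, 28 to 174, 16 to 365 and 0 to 10. Differences inside a member's own interval could not be resolved with 2 arrays per group. The farthest bounds of the 54 pairwise intervals were 0.51-fold and 1.93-fold. Others were narrower, such as that of hpo in vg against lacZ, from 0.96-fold to 1.39-fold.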
